A study of Rattus norvegicus with 30 samples.

Results

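Mitochondrially encoded respiratory chain genes were followed across all 7 groups of a rat nerve repair series. The 10 genes were chosen by Ensembl gene ID in the table of read counts, a choice made with earlier results of these data known. All 10 IDs were found among the 32545 listed, and all 10 were among the 16015 genes with enough counts to be tested. Of complex I they hold mt-Nd1 (ENSRNOG00000030644), mt-Nd2 (ENSRNOG00000031033), mt-Nd3 (ENSRNOG00000033615), mt-Nd4 (ENSRNOG00000029707) and mt-Nd5 (ENSRNOG00000029971). The gene of complex III is mt-Cytb (ENSRNOG00000031766). Those of complex IV are mt-Co1 (ENSRNOG00000034234), mt-Co2 (ENSRNOG00000030371) and mt-Co3 (ENSRNOG00000030700), and that of the ATP synthase is mt-Atp6 (ENSRNOG00000031979). The names are those that came with the IDs in the list that chose the genes. The deposited table holds IDs without names, so the pairing could not be checked against it.

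Mitochondria carry a small circular genome of their own, which encodes core subunits of the complexes that pass electrons to oxygen and make ATP, while the nuclear genome encodes the other subunits. Each strand of that genome is transcribed as a long precursor that is cut into separate messages, so genes of 1 strand share their transcription and can still differ in how long their messages last. In a peripheral nerve, mitochondria lie in axons as well as in Schwann cells and the other cells around them.

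The series sequenced poly(A) RNA of the median nerve, a forelimb nerve, from adult female wild-type rats. A gap of 8 mm was bridged by a tube of chitosan, a sugar polymer derived from chitin, 10 mm in length. Delayed repair was made 3 months after the injury and immediate repair at the injury, and the regenerated tissue was taken at 7, 14 and 21 days. Delayed repair had 5, 4 and 3 libraries at these days, immediate repair had 4, 4 and 5, and the untreated healthy nerve that served as control had 5. All repaired groups share the cut and the tube, and the control nerve had neither, so injury, tube and regrowth cannot be told apart in a comparison with control. The labels name whole nerve tissue and no cell type. Its cell type markers were not checked, because the IDs could not be matched to gene symbols.

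The 30 libraries held between 11958242 and 17334752 counts each. The lowest count of any of the 10 genes in any library was 414. By read count mt-Co1 ranked between 2 and 7 among all genes in every library, and mt-Co1, mt-Co2, mt-Co3 and mt-Atp6 were among the top 50 in all 30. Delayed day 7 replicate 5 stood apart: 98 genes were above 5 CPM there and more than 10 times their level in every other library, against at most 8 such genes in any other library. It was also the highest of its group in all 10 mitochondrial genes. Results of these 10 genes in that group that moved without it are therefore also given without it.

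The comparison with control asked how the regenerating tissue differed from intact nerve. Levels are in CPM, the counts of a gene scaled to a common library size, and a gene is called changed where the adjusted p of edgeR's quasi-likelihood test is under 0.05 over all genes tested. In every comparison with control the genes called were lower in the repaired nerve and none was higher. In delayed repair 8, 7 and 5 of the 10 genes fell at days 7, 14 and 21. The background there was 32.9% of all genes tested called lower at day 7, 25.7% at day 14 and 21.2% at day 21. In immediate repair 8, 6 and 4 of the 10 fell at days 7, 14 and 21, against a background of 35.0%, 25.4% and 22.8%. The share of the 10 genes that fell was above the background at all 6. The 10 genes varied together across libraries, so they do not count as 10 independent genes. They also had higher read counts than most genes tested, and the background was not matched to them in level. In these bulk samples fewer cells of a type and less RNA per cell cannot be told apart. The 6 comparisons share the same 5 control libraries and are not independent of each other.

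The median log2 fold change of the 10 genes against control was -1.001, -0.71 and -0.76 in delayed repair at days 7, 14 and 21, and -1.37 at day 7 without delayed day 7 replicate 5. In immediate repair it was -0.99, -0.58 and -0.57. Over all genes tested the median lay between -0.08 and 0.02. The scaling itself holds that median near 0, so it is not an independent yardstick. mt-Nd1, mt-Nd2 and mt-Cytb fell in all 6 comparisons, mt-Co3 and mt-Atp6 in 5, mt-Nd5 in 4, and mt-Co1, mt-Nd3 and mt-Nd4 in 2. mt-Co2 was called in none. Of all genes tested, 15.8% were called lower in all 6.

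**Figure D1:**
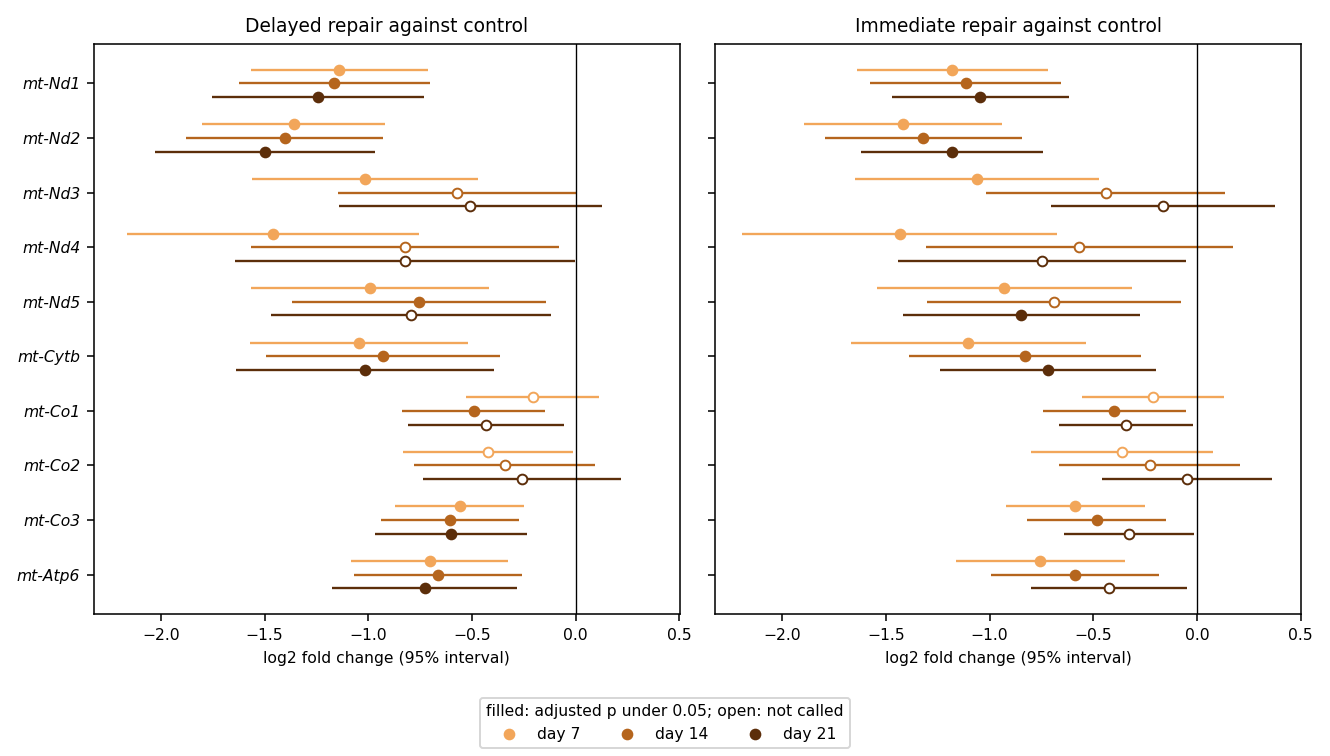
Log2 fold change against control (x axis) of each of the 10 genes (y axis), for delayed and immediate repair at days 7, 14 and 21, with 95% intervals. Filled points passed an adjusted p of 0.05 and open points did not; mt-Nd2 lies furthest to the left at days 14 and 21 in both repairs, and mt-Co2 has open points throughout.

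Complex I, the NADH dehydrogenase, is where electrons from NADH enter the chain. mt-Nd2 encodes a membrane subunit of its proton-pumping arm. In delayed repair it had 1155, 1259.5, 1462, 1821 and 3391 CPM at day 7, then 1499, 1732, 1985 and 1839 CPM at day 14, and 1745, 1523 and 1688 CPM at day 21. In immediate repair it had 1680.4, 2108, 1239.9 and 1948 CPM at day 7, then 1862, 1803, 2016 and 1788 CPM at day 14, and 2470.4, 1674, 1782, 2133 and 2228 CPM at day 21. The control libraries had 4839, 4435, 5511, 4569 and 3956 CPM. All 25 repaired libraries lay below all 5 control libraries, the closest being delayed day 7 replicate 5. mt-Nd2 was the only one of the 10 genes for which this held, and 14.9% of all genes tested were likewise below control throughout. In delayed repair mt-Nd2 fell by 1.36 on the log2 scale at day 7 (SE 0.21, adjusted p = 5.38e-06), fell by 1.40 at day 14 (SE 0.23, adjusted p = 1.66e-05) and fell by 1.497 at day 21 (SE 0.26, adjusted p = 4.17e-05). In immediate repair it fell by 1.42 (adjusted p = 8.67e-06), 1.32 (adjusted p = 3.53e-05) and 1.18 (adjusted p = 6.24e-05). With all libraries in the fit, it fell by 64.6% against the control level in delayed repair at day 21, the largest of the 6 changes. It fell by 55.9% in immediate repair at day 21, the smallest. Which change was largest turned on delayed day 7 replicate 5. Without that library mt-Nd2 fell by 1.71 at day 7 of delayed repair, more than at day 21. The other libraries of that group averaged 1424 ± 294 CPM (SD, n = 4). The 6 repaired groups ranged from 1652 ± 115 CPM (SD, n = 3) in delayed repair at day 21 to 2058 ± 327 CPM (SD, n = 5) in immediate repair at day 21. Neighbours in that order differed by less than the SD of the more variable of each pair, while the control mean was 4662 ± 572 CPM (SD, n = 5).

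mt-Nd1 encodes the membrane subunit next to the site where ubiquinone binds. In delayed repair it had 1379, 1443, 1769, 2252 and 3740.5 CPM at day 7, then 1962, 2141, 2057 and 2167 CPM at day 14, and 2127, 1926 and 1852 CPM at day 21. Immediate repair gave 1826, 2558, 1459 and 2388 CPM at day 7, then 2365, 2208, 2085 and 1946 CPM at day 14, and 2662, 2181, 2287, 2107 and 2052 CPM at day 21. Control nerves had 5531, 4360.4, 5449, 4496 and 3464 CPM. Only delayed day 7 replicate 5 reached into the control range, above control replicate 5. In delayed repair mt-Nd1 fell by 1.14 (SE 0.21, adjusted p = 3.77e-05), 1.16 (SE 0.22, adjusted p = 0.000111) and 1.24 (SE 0.25, adjusted p = 0.000232) at days 7, 14 and 21 on the log2 scale. At the same days of immediate repair it fell by 1.18 (adjusted p = 5.96e-05), 1.12 (adjusted p = 0.000179) and 1.05 (adjusted p = 0.000185).

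The other 3 genes of complex I were called at fewer days. mt-Nd5 and mt-Nd4 encode large proton-pumping subunits of the membrane arm. mt-Nd5 had 506, 614, 877, 949 and 2118 CPM in delayed repair and 882, 1567, 649 and 1128 CPM in immediate repair at day 7. Control nerves had 2496, 1944, 2031, 2039 and 1544 CPM. In each repair 1 library at day 7 lay inside the control range, which the others were below. mt-Nd5 fell by 0.99 in delayed repair (adjusted p = 0.00326) and by 0.93 in immediate repair (adjusted p = 0.00852) at day 7. It also fell by 0.75 in delayed repair at day 14 (adjusted p = 0.0359) and by 0.85 in immediate repair at day 21 (adjusted p = 0.0142). At the remaining points its log2 fold change was -0.80 in delayed repair at day 21 (adjusted p = 0.0513) and -0.69 in immediate repair at day 14 (adjusted p = 0.0543). Both were called by DESeq2 (adjusted p = 0.0310 in delayed and 0.0401 in immediate repair), by voom and with the compared groups alone. The day 14 call in delayed repair was lost without any 1 of 6 libraries, which were control replicates 1, 3 and 4 and delayed day 14 replicates 2, 3 and 4, with adjusted p between 0.0526 and 0.0937. edgeR's test also lost it with no filter (adjusted p = 0.0594) and with a replicate block (adjusted p = 0.0596).

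mt-Nd4 had the lowest read counts of the 10 genes. It had 38.8, 68.1, 70.8, 109 and 234 CPM in delayed repair and 108, 137, 68.5 and 109.5 CPM in immediate repair at day 7. The control libraries had 409.6, 258, 277, 299 and 185 CPM. The immediate libraries were all below control, and of the delayed ones replicate 5 was not. At day 7 mt-Nd4 fell by 1.46 in delayed repair (SE 0.34, adjusted p = 0.000634) and by 1.43 in immediate repair (SE 0.37, adjusted p = 0.00145). At days 14 and 21 it was not called, with log2 fold changes of -0.82 (adjusted p = 0.0592) and -0.82 (adjusted p = 0.0971) in delayed repair. In immediate repair they were -0.57 (adjusted p = 0.193) and -0.75 (adjusted p = 0.0709). Other tests did call it lower: at day 14 of delayed repair DESeq2 (adjusted p = 0.0429), edgeR with the compared groups alone (adjusted p = 0.00741) and voom (adjusted p = 0.00106), and at day 21 voom (adjusted p = 0.00273). In immediate repair voom called it at day 14 (adjusted p = 0.0452) and at day 21 (adjusted p = 0.0118), and the compared groups alone at day 21 (adjusted p = 0.00936). Calls also came without delayed day 7 replicate 5 at day 14 (adjusted p = 0.0169) and day 21 (adjusted p = 0.0339) of delayed repair and at day 21 of immediate repair (adjusted p = 0.0217).

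mt-Nd3 encodes a small membrane subunit with a loop near the quinone site. At day 7 it had 164, 158, 229, 386 and 511 CPM in delayed repair and 260.0, 389, 176 and 296 CPM in immediate repair. Control nerves had 535, 487, 765, 589 and 546 CPM. Again only delayed replicate 5 lay inside the control range. mt-Nd3 fell by 1.01 in delayed repair (adjusted p = 0.00171) and by 1.06 in immediate repair (adjusted p = 0.00209) at day 7. At days 14 and 21 its log2 fold changes were -0.57 (adjusted p = 0.0923) and -0.51 (adjusted p = 0.188) in delayed repair. They were -0.44 (adjusted p = 0.196) and -0.17 (adjusted p = 0.630) in immediate repair, and none of the 4 was called. With the compared groups alone mt-Nd3 was called in delayed repair at days 14 (adjusted p = 0.00826) and 21 (adjusted p = 0.0388) and in immediate repair at day 14 (adjusted p = 0.0461), and voom called it at both days of delayed repair.

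mt-Cytb encodes cytochrome b, the only subunit of complex III that the mitochondrial genome encodes, which passes electrons from ubiquinol towards cytochrome c. In delayed repair it had 1618, 1883, 2133, 3532 and 5654 CPM at day 7, then 3279, 2836, 3366 and 3376 CPM at day 14, and 2989, 3069 and 3028 CPM at day 21. Immediate repair gave 2644, 3871, 1579.8 and 3307 CPM at day 7, then 3781, 3436, 3516 and 3029.8 CPM at day 14, and 4219, 2988, 3478, 4069 and 3849 CPM at day 21. The control libraries had 6774, 5851, 7312, 5829 and 4824 CPM. Of the repaired libraries only delayed day 7 replicate 5 was inside the control range. In delayed repair mt-Cytb fell by 1.05 (SE 0.26, adjusted p = 0.000912), 0.93 (adjusted p = 0.00598) and 1.01 (adjusted p = 0.00816) at days 7, 14 and 21. At these days of immediate repair it fell by 1.10 (adjusted p = 0.00107), 0.83 (adjusted p = 0.0128) and 0.72 (adjusted p = 0.0220). The call at day 21 of immediate repair was lost without control replicate 3 (adjusted p = 0.0538) or without immediate day 21 replicate 2 (adjusted p = 0.0546).

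Complex IV, cytochrome c oxidase, hands electrons to oxygen, and mt-Co1 encodes its catalytic core subunit. In delayed repair mt-Co1 had 12850.2, 10191, 9631, 11989 and 16349.7 CPM at day 7, then 9707, 9632, 10059 and 10684 CPM at day 14, and 9956, 9008 and 12350.5 CPM at day 21. Immediate libraries had 10837, 13302, 10901 and 13593 CPM at day 7, then 10445, 11661, 11601 and 9062 CPM at day 14, and 13536, 8962, 11266, 12055 and 9707 CPM at day 21. The control libraries had 14385, 13142, 17178, 13985 and 11753 CPM. Both repairs lay below all control libraries at day 14 and overlapped them at days 7 and 21. mt-Co1 fell by 0.49 in delayed repair (adjusted p = 0.0161) and by 0.40 in immediate repair (adjusted p = 0.0490) at day 14. At day 7 its log2 fold change was -0.21 in delayed repair (SE 0.16, adjusted p = 0.251) and -0.21 in immediate repair (SE 0.17, adjusted p = 0.268). At day 21 it was -0.43 (adjusted p = 0.0576) and -0.34 (adjusted p = 0.0741) in delayed and immediate repair, both called lower by DESeq2 (adjusted p = 0.0179 in delayed and 0.0289 in immediate repair) and by voom. The delayed call at day 14 was lost without control replicate 3 (adjusted p = 0.0520). The immediate call was lost without any 1 of 20 of the 30 libraries, with adjusted p up to 0.146. Other settings of edgeR's test lost it too: no filter (adjusted p = 0.0902), the compared groups alone (adjusted p = 0.104) and a replicate block (adjusted p = 0.0770). So did library sizes without the 10 genes (adjusted p = 0.0772).

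mt-Co2, which carries the copper site that takes electrons from cytochrome c, was called in no comparison with control by edgeR's test, with an unadjusted p under 0.05 in 1. DESeq2 called it lower in delayed repair at day 7 (adjusted p = 0.0434), as did voom, and edgeR without control replicate 5 or without delayed day 7 replicate 4 or 5. Its log2 fold changes were -0.42 (adjusted p = 0.0675), -0.34 (adjusted p = 0.185) and -0.26 (adjusted p = 0.387) in delayed repair at days 7, 14 and 21. In immediate repair they were -0.36 (adjusted p = 0.138), -0.23 (adjusted p = 0.387) and -0.05 (adjusted p = 0.863). The 25 repaired libraries had between 2117 and 4718 CPM with a median of 3368, and the control libraries 3804, 3929, 5456, 3819 and 3017 CPM, so they overlapped in every group.

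mt-Co3, the third core subunit of complex IV, was called in every comparison except immediate repair at day 21. Its 25 repaired libraries lay between 3837 and 6802 CPM with a median of 4899, against 7114, 6655, 9463, 6939.7 and 5894 CPM in control. In delayed repair mt-Co3 fell by 0.56 (adjusted p = 0.00241), 0.61 (adjusted p = 0.00294) and 0.60 (adjusted p = 0.00803) at days 7, 14 and 21. After immediate repair it fell by 0.59 (adjusted p = 0.00274) and 0.48 (adjusted p = 0.0145) at days 7 and 14, and its log2 fold change at day 21 was -0.33 (adjusted p = 0.0768; with DESeq2, adjusted p = 0.0344). The day 14 call in immediate repair was lost without control replicate 3 (adjusted p = 0.0600).

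mt-Atp6 encodes subunit a of the ATP synthase, which forms the path of protons through the membrane. Its 25 repaired libraries lay between 2944 and 6312 CPM with a median of 4253, against 6599, 5972, 8179.8, 6521 and 5490.3 CPM in control. In delayed repair it fell by 0.70 (adjusted p = 0.00175), 0.66 (adjusted p = 0.00645) and 0.73 (adjusted p = 0.00819) at days 7, 14 and 21. With immediate repair it fell by 0.75 (adjusted p = 0.00164) and 0.59 (adjusted p = 0.0143) at days 7 and 14, and its log2 fold change at day 21 was -0.42 (adjusted p = 0.0592; with DESeq2, adjusted p = 0.0322). The day 14 call in immediate repair was lost without immediate day 14 replicate 4 (adjusted p = 0.0503).

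**Figure D2:**
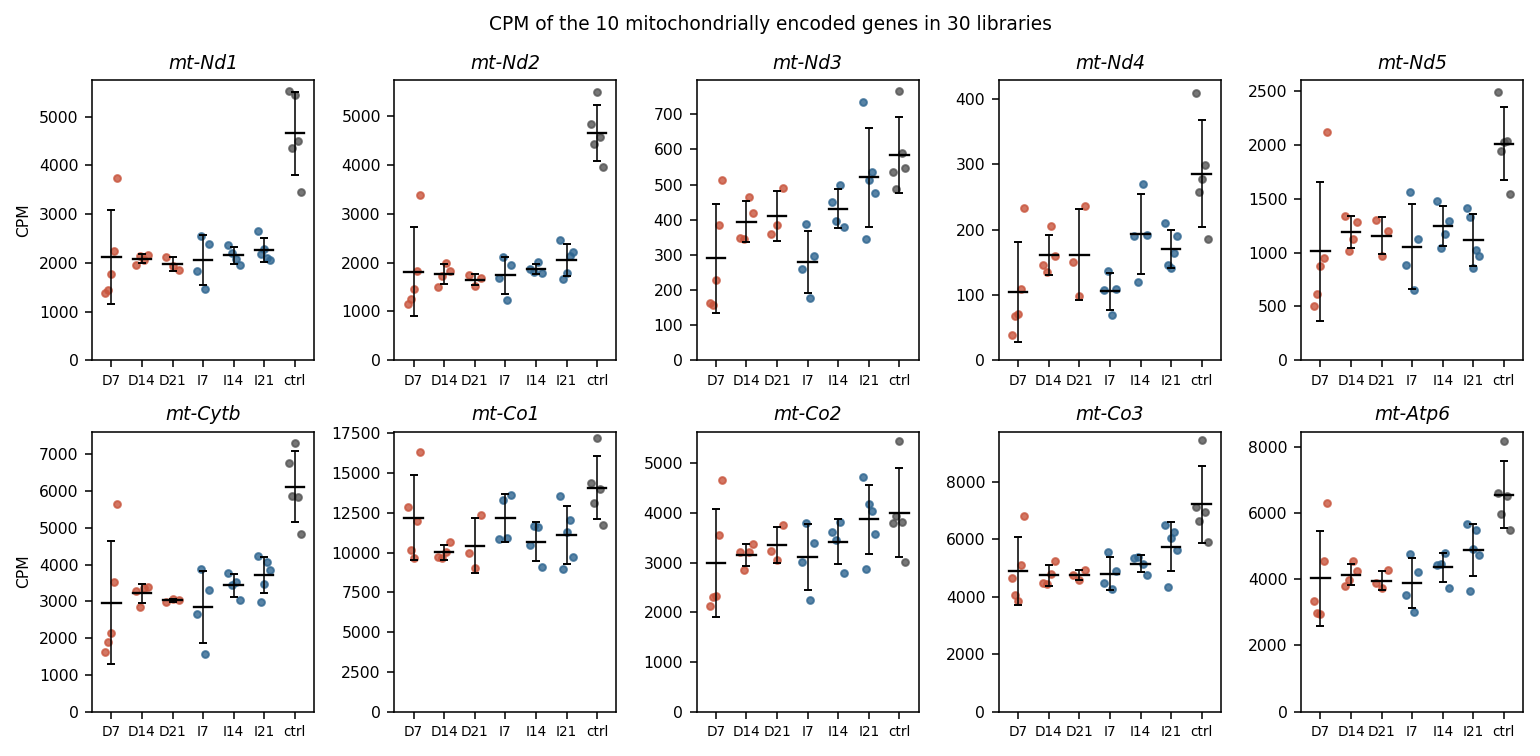
CPM of each of the 10 genes (1 panel each, y axis) in every library, by group (x axis): D, delayed repair and I, immediate repair, each at days 7, 14 and 21, and ctrl, control. Points are libraries and bars are mean ± SD; in the mt-Nd2 panel all 25 repaired libraries lie below the lowest control library, at 3956 CPM.

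Of the 10 genes, 1, 8 and 6 had all delayed libraries below all control libraries at days 7, 14 and 21, against a background of 26.8%, 27.8% and 27.2% of all genes tested. In immediate repair the numbers were 7, 7 and 4, against 31.7%, 26.4% and 22.0%. The low number in delayed repair at day 7 turned on replicate 5. Without it the other 4 libraries were below control for 8 of the 10 genes, against 31.4% of all genes tested, and the exceptions were mt-Co1 and mt-Co2. Refitted without it, 9 of the 10 genes fell at day 7, where 34.7% of all genes tested were called lower. In complex I, mt-Nd4 then fell by 2.00 (adjusted p = 2.52e-06), mt-Nd2 fell by 1.71 (adjusted p = 3.15e-09), mt-Nd5 fell by 1.45 (adjusted p = 5.32e-06), mt-Nd1 fell by 1.45 (adjusted p = 9.29e-08) and mt-Nd3 fell by 1.32 (adjusted p = 5.86e-05). mt-Cytb fell by 1.42 (adjusted p = 4.47e-06), mt-Atp6 fell by 0.92 (adjusted p = 3.19e-05), mt-Co3 fell by 0.71 (adjusted p = 0.000148) and mt-Co2 fell by 0.64 (adjusted p = 0.00451). mt-Co1 still was not called, at -0.34 (adjusted p = 0.0583).

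The 10 genes together took up 3.04 ± 0.924% (SD, n = 5), 3.23 ± 0.282% (n = 4) and 3.09 ± 0.204% (n = 3) of all counts in delayed repair at days 7, 14 and 21. In immediate repair they took up 3.04 ± 0.575% (n = 4), 3.44 ± 0.258% (n = 4) and 3.83 ± 0.474% (n = 5), and in control 4.76 ± 0.745% (n = 5). The repaired libraries ranged from 2.36 to 4.59% and the control libraries from 3.66 to 5.68%, so the ranges overlapped. The highest repaired library was delayed day 7 replicate 5, and the other 4 of its group lay between 2.43 and 3.22%.

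**Figure D3:**
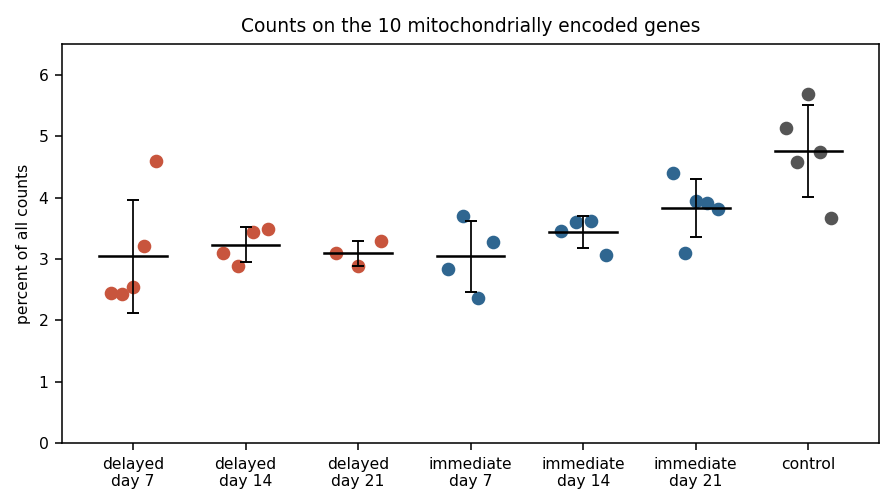
Percent of all counts in a library that fell on the 10 genes (y axis), by group (x axis), with each library as a point and the mean ± SD. Immediate repair averaged 3.04, 3.44 and 3.83% at days 7, 14 and 21 and control 4.76%.

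The make-up of the mitochondrial messages was described by each gene's share of the 10-gene sum. Such a share does not depend on how libraries are scaled, but the shares add up to the whole, so a higher share of 1 gene lowers those of the others. mt-Co1 made up 38.6 ± 5.20% of the sum in delayed repair at day 7, 32.5 ± 0.630% at day 14 and 33.6 ± 2.53% at day 21. In immediate repair it made up 38.3 ± 3.22%, 32.4 ± 1.67% and 31.3 ± 1.26%, and in control 28.1 ± 0.579% (SD, n as above). All 25 repaired libraries, at 29.1 to 46.2%, were above the 5 control libraries, at 27.4 to 28.9%.

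For 3 genes the share was below control in all 25 repaired libraries. mt-Nd2 made up 4.15 to 6.81% in repaired nerve against 8.94 to 9.73% in control. mt-Nd1 made up 4.95 to 7.67% against 8.52 to 10.5%, and mt-Cytb 5.81 to 11.5% against 11.9 to 12.9%. Shares of the other 6 genes overlapped with control. Relative to the same 10-gene sum, 18.1% of all genes tested were above control in all repaired libraries and 6.34% were below it. That sum averaged less of all counts in every repaired group than in control, which raises other genes measured against it. By CPM, 14.9% of all genes tested were below control in all repaired libraries. The 6.34% is therefore not a like background for shares that add up to the whole. No test was run on shares, since they are sums over the chosen genes.

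Summed by complex, the 5 genes of complex I held 11.6 to 20.1% of the sum in repaired libraries and 22.8 to 26.3% in control. The 3 genes of complex IV held 55.9 to 70.5% in repaired libraries and 48.2 to 52.1% in control. Of the genes in these sums only mt-Nd1, mt-Nd2 and mt-Co1 had shares apart from control in every repaired library. Shares of mt-Nd3, mt-Nd4, mt-Nd5, mt-Co2 and mt-Co3 overlapped with control, so the sums do not show a shift of every gene of a complex. No background was computed for such sums. Counts of mt-Nd2 per count of mt-Co1 averaged 0.145, 0.176 and 0.160 in delayed repair at days 7, 14 and 21. They averaged 0.143, 0.176 and 0.187 in immediate repair and 0.332 in control. Library by library this ratio was 0.0899 to 0.230 in repaired nerve and 0.321 to 0.337 in control. In every repaired library the mt-Nd2 share was below control and the mt-Co1 share above it. The gap in their ratio follows from those shares and is no separate result. Gene lengths were not used here, so such a ratio compares read counts between samples and does not rank the levels of the messages.

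**Figure D4:**
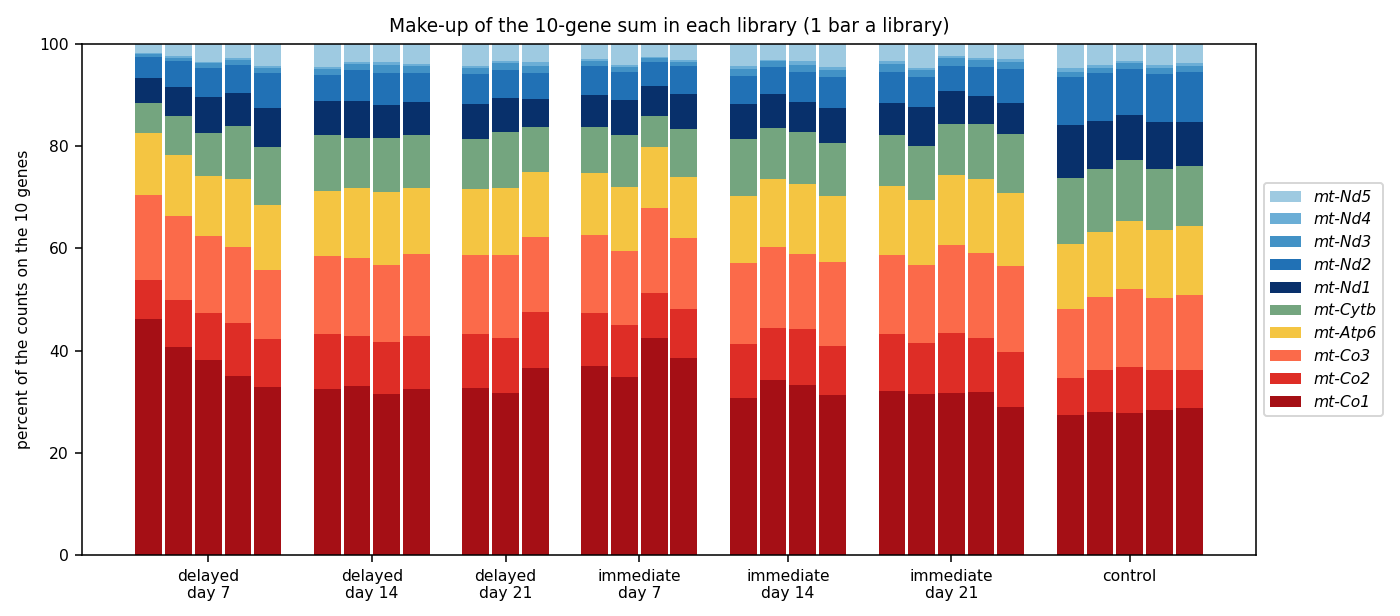
Share of each of the 10 genes in their summed counts (y axis, percent), as 1 stacked bar for each library, grouped by repair, day and control. The mt-Co1 segment is largest in delayed day 7 replicate 1, at 46.2%, and is 27.4 to 28.9% in the control libraries.

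By the SD of the mt-Co1 share, the make-up varied most among libraries of day 7. Delayed day 7 replicate 1 had the highest share of mt-Co1, at 46.2%, and the lowest shares of mt-Nd2, at 4.15%, and of mt-Nd4, at 0.139%. The delayed libraries of that day had mt-Co1 at 46.2, 40.8, 38.1, 35.0 and 32.9%, and the immediate ones at 37.0, 34.9, 42.6 and 38.5%.

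The central comparison of the series sets delayed against immediate repair at each day. None of the 10 genes was called on any day by edgeR's quasi-likelihood test, and with all libraries none had an unadjusted p under 0.05. Of all genes tested, 0.712% were called at day 7, 0% at day 14 and 0.05% at day 21. DESeq2 and limma's voom also called 0 of the 10 at each day. At day 7 the log2 differences lay between -0.06 and 0.06. At day 14 they lay between -0.26 and -0.05, below 0 for all 10 genes. At day 21 they lay between -0.34 and 0.05, below 0 for 9. Libraries of the repairs overlapped for every gene on every day, where 0.112%, 0.880% and 2.02% of all genes tested had no overlap and were lower in delayed repair at days 7, 14 and 21, and 0.262%, 1.02% and 2.19% had none and were higher.

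A missed threshold does not show that the repairs act alike, and the 95% intervals give what these samples allow. Over the 10 genes the intervals reached from -0.76 to 0.71 at day 7, from -1.03 to 0.57 at day 14 and from -0.97 to 0.72 at day 21. In the fit of all libraries all were within 2-fold in either direction except that of mt-Nd4 at day 14, from -1.03 to 0.52. For mt-Nd2 the difference was 0.06 (SE 0.22) at day 7, -0.08 (SE 0.24) at day 14 and -0.32 (SE 0.25) at day 21. Without delayed day 7 replicate 5 the day 7 differences lay between -0.56 for mt-Nd4 and -0.12 for mt-Co1 and mt-Co3, with every adjusted p at 1. In that refit mt-Nd4 had an SE of 0.30, so the 2-fold bound at day 7 does not carry over to it. There mt-Nd5 differed by -0.52 (SE 0.23). An F test of the interaction of repair and day called 0 of the 10 genes, with every adjusted p at 1, no unadjusted p under 0.05, and 0% of all genes called. DESeq2 and voom called 0 of the 10 there as well.

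**Figure D5:**
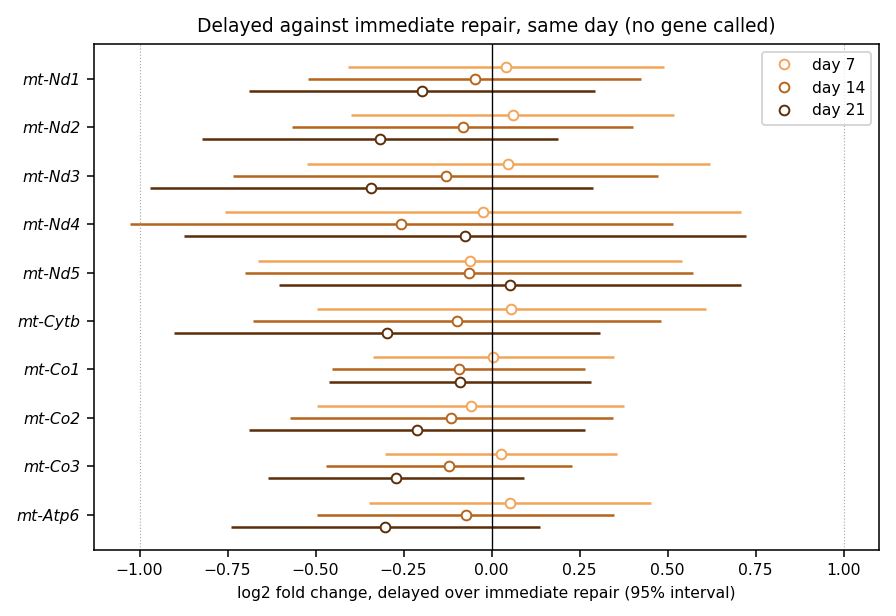
Log2 fold change of delayed over immediate repair (x axis) for each of the 10 genes (y axis) at days 7, 14 and 21, with 95% intervals; dotted lines mark 2-fold. All points lie between -0.34 and 0.06, and every interval spans 0.

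Between days of the same repair 1 of the 10 genes was called, in 1 comparison. In delayed repair none was called at day 14 against day 7 (background 34.7% of all genes), at day 21 against day 14 (0%) or at day 21 against day 7 (26.1%). In immediate repair none was called at day 14 against day 7 (33.7%), with 2 at an unadjusted p under 0.05, and none at day 21 against day 14 (0.256%).

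mt-Nd3 was the exception, at day 21 against day 7 of immediate repair, where 43.1% of all genes were called in either direction and 24.5% were called higher. In immediate repair it had 260.0, 389, 176 and 296 CPM at day 7, then 451, 395, 500.0 and 379 CPM at day 14, and 734, 344, 514, 536 and 477 CPM at day 21. At day 21 the libraries overlapped with those of day 7 through 1 library, replicate 2. mt-Nd3 rose by 0.90 on the log2 scale (SE 0.28, adjusted p = 0.0128), a call that was lost without immediate day 7 replicate 3 (0.73, adjusted p = 0.0596). In delayed repair it had 347, 344, 464 and 419.6 CPM at day 14 and 358, 383 and 491 CPM at day 21, with a log2 difference of 0.51 between days 21 and 7 (SE 0.30, adjusted p = 0.211). The change differed between the repairs by -0.39 (delayed minus immediate, SE 0.41, adjusted p = 0.873). mt-Nd4 in immediate repair was higher in all day 21 libraries than in all day 7 libraries, as were 16.8% of all genes, but was not called (0.69, adjusted p = 0.126).

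Calls between days in delayed repair depended on replicate 5 of day 7. Without it mt-Nd3, mt-Nd4 and mt-Nd5 were called higher at day 14 than at day 7, by 0.75 (adjusted p = 0.0226), 1.17 (adjusted p = 0.00353) and 0.69 (adjusted p = 0.0200), against a background of 22.1% of all genes called higher in that refit. At day 21 against day 7 the same 3 genes were called higher without it, by 0.81 (adjusted p = 0.0248), 1.17 (adjusted p = 0.00673) and 0.65 (adjusted p = 0.0440), against a background of 20.4%. At 3 of 10, both counts were near the background.

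Libraries of a group differed in the 10 genes to unlike degrees. The median coefficient of variation over the 10 genes was 48.1%, 7.96% and 9.09% in delayed repair at days 7, 14 and 21, and 24.5% at day 7 without replicate 5. It was 23.2%, 10.8% and 16.4% in immediate repair and 17.6% in control. In delayed repair at day 7 the highest library had 1.70 times the lowest for mt-Co1 and 6.02 times for mt-Nd4, and without replicate 5 the ratios were 1.33 and 2.80. In immediate repair at day 7, replicate 3 was the lowest library for 9 of the 10 genes, and at day 21 replicate 1 was the highest for all 10. In control, replicate 5 was the lowest for 9.

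Over the 30 libraries the log2 CPM of each gene was correlated with the mean of the other 9 at r = 0.620 for mt-Co1 and between 0.845 and 0.979 for the rest, highest for mt-Cytb. With group means taken out, r was 0.725 for mt-Co1 and between 0.813 and 0.953 for the rest. These are descriptions over libraries that share their group, depth and scaling.

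The 2 genes outside the set whose pattern was most like the mean of the 10, by Pearson's r over the 30 libraries among 12463 genes, were ENSRNOG00000029042 (r = 0.946) and ENSRNOG00000031053 (r = 0.925). The files give no name for them, so whether they too are encoded by the mitochondrial genome could not be checked. They were picked for following a mean that was lower in the repaired nerve, so their values are a description with no test. Their means were not computed without delayed day 7 replicate 5. At day 7 ENSRNOG00000029042 averaged 280 ± 194 CPM (SD, n = 5) in delayed repair and 270 ± 92.0 CPM (n = 4) in immediate repair. Its control mean was 546 ± 105 CPM (n = 5). Its log2 fold changes against control were -0.96, -0.67 and -0.63 in delayed repair and -1.02, -0.74 and -0.55 in immediate repair at days 7, 14 and 21. At day 7 ENSRNOG00000031053 averaged 239 ± 182 CPM (SD, n = 5) in delayed repair and 225 ± 93.4 CPM (n = 4) in immediate repair. Its control mean was 619 ± 122 CPM (n = 5). Its log2 fold changes were -1.37, -1.06 and -1.11 in delayed repair and -1.46, -0.92 and -1.03 in immediate repair.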

How the data were processed

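The deposited values are whole read counts per gene in 1 table of 30 libraries, not normalized by the authors. Per the labels' protocols, poly(T) beads took messenger RNA from 400 ng of RNA (integrity above 6) and strand was not marked. HISAT2 2.0.5, DESeq2 1.38.3 and featureCounts 1.5.0-p3 are named, without roles, in the submitters' processing notes. Genome build, annotation and treatment of reads shared with nuclear copies of mitochondrial sequence are not given in the sources at hand, so single genes are uncertain to that extent.

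Counts were fitted in R 4.3.3 with edgeR 4.0.16 (filterByExpr, TMM factors, robust quasi-likelihood test) in 1 fit of 7 groups with 23 residual degrees of freedom. P-values were adjusted by Benjamini-Hochberg over all 16015 genes tested, with a threshold of 0.05. Standard errors and 95% intervals came from the test statistic. Alternatives were DESeq2 1.42.0, limma 3.58.1 voom with sample quality weights, relative log expression factors, no filter, compared groups alone, a replicate block, library sizes without the 10 genes, and leaving out each library.

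The named genes were all 10 members and the 2 other genes with the highest correlation, of log2 CPM with a prior count of 2, with their mean, among tested genes whose mean log2 CPM reached 1. The members and lists were chosen with earlier results of these data known. Lists of nuclear respiratory chain genes and of cell type markers were not tested, because the IDs could not be matched to symbols. No sequence of the 10 genes is printed, as the reference tables used here hold none.

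Replicates are numbered in the labels without word of separate animals, so p-values measure only the spread between these samples, which may be technical. Among 51 pairs of replicates the smallest chi-square per degree of freedom was 14.9, and none was alike within sampling noise.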

Additional observations from a re-analysis of the deposited data

Results flagged for a closer look

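In delayed repair at day 7, mt-Nd5 had 2118 CPM in replicate 5, and the next highest library of the group had 949 CPM. The gap to that library was 0.726 of the whole range of the 5 libraries, which is past Dixon's 95% limit for a group of that size. It was the only value past its limit among the 66 sets of 4 or 5 libraries examined, and chance alone puts about 5% of such sets past it. The same library was the highest of its group in all 10 genes. Without it mt-Nd5 fell by 1.45 against control at day 7 (adjusted p = 5.32e-06, edgeR's quasi-likelihood test), and with it by 0.99 (adjusted p = 0.00326).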

How the results depend on the processing

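Of the 38 calls against control, 32 held under every alternative run, which includes all those of mt-Nd1 and mt-Nd2. The other 6 were mt-Co1 and mt-Nd5 in delayed repair at day 14, mt-Co1, mt-Co3 and mt-Atp6 in immediate repair at day 14, and mt-Cytb in immediate repair at day 21. Of 2280 log2 fold changes against control over 38 settings, 2277 were below 0. The exceptions were mt-Co2 in immediate repair at day 21, at 0.00439 with no filter, 0.0879 without control replicate 3 and 0.0430 without immediate day 21 replicate 2, over a range of -0.13 to 0.0879 when 1 library was left out. The number of the 10 genes called moved by over 1.5 times in these cases. With voom it was 9 in delayed repair at day 21 against control, 8 in immediate repair at day 21 against control, 2 in delayed repair at day 14 against day 7 and 1 in immediate repair at day 14 against day 7. With DESeq2 it was 7 in immediate repair at day 21 against control. With the compared groups alone it was 2 in immediate repair at day 21 against day 7. Single genes gained a call in 29 cases under other tools or settings and in 34 cases when 1 library was left out. They lost a call in 6 cases under other tools or settings and in 32 cases when 1 library was left out. The cause was not tested.

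Leaving out 1 library at a time gave 8 to 9, 5 to 8 and 5 to 8 genes in delayed repair against control at days 7, 14 and 21, and 8 to 8, 4 to 7 and 3 to 8 in immediate repair. The counts were 0 to 3 in delayed repair at day 14 and at day 21 against day 7, and 0 to 1 in immediate repair. Leaving out control replicate 3 gave the lowest count of delayed repair at day 14 and of immediate repair at days 14 and 21, a low shared in immediate repair with leaving out its day 14 replicate 4 and its day 21 replicate 2. The count of immediate repair at day 21 was 8 without control replicate 5 and 7 without delayed day 7 replicate 5. Without that library it was 8 in delayed repair at day 21, and 3 between days 14 or 21 and day 7. Delayed against immediate repair, the interaction and day 21 against day 14 gave 0 throughout.

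Over all genes, the calls of delayed against immediate repair at day 7 were 114, and 341 with DESeq2, 15 with relative log expression factors, 7 with no filter, 0 with voom, the groups alone or the replicate block, and 0 to 360 when 1 library was left out. At day 14 they were 0, and 7 with DESeq2 and 2 with voom. At day 21 they were 8, and 57 with DESeq2, 54 with voom, 1 with the groups alone, 0 with no filter or the replicate block, and 0 to 19 when 1 library was left out. Another scaling moved the median of all genes by at most 0.0706 on the log2 scale, but each scaling tried takes most genes as unchanged.

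Whether replicate numbers pair the libraries was not settled. Deviations of same-numbered libraries correlated at a median of 0.00754 over 81 pairs, and those of other libraries at -0.0062 over 303. The correlation was over 0.1 in 18 of the same-numbered pairs and in 53 of the others. Of 30 libraries, 10 correlated best, among other groups, with a library of their own number. With the replicate block 8, 6 and 5 of the 10 genes were called in delayed repair and 8, 5 and 4 in immediate repair against control, and 0 between the repairs.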
